A study of Mus musculus with 20 samples.

Results

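The glucocorticoid-responsive genes and metallothioneins are a group of 10 of the 55401 genes in the count table, and they were followed through the 5 tissues of the Nsun6 knockout (KO) mouse. Fkbp5, Tsc22d3, Zbtb16, Sgk1 and Klf9 are known targets of the glucocorticoid receptor, Nr3c1 encodes that receptor, and Cdkn1a, Lcn2 and the metallothioneins Mt1 and Mt2 respond to glucocorticoids among other signals. They were picked by gene name, and each was read in every library, between KO and wild type (WT), and between the libraries numbered 2 and 1 in the sample labels. The tissues, taken from female mice aged 8 weeks, were heart, kidney, liver, small intestine and spleen, with 2 WT and 2 KO libraries per tissue and 20 in all. The KO line is on C57BL/6J and lacks exons 3 and 4 of Nsun6, a methyltransferase that places 5-methylcytosine on RNA, after CRISPR/Cas9 cutting in fertilized eggs. The deletion is in the germ line and so in every cell type, and the KO animals came from crosses of heterozygotes. How many founders gave rise to the line, and whether the WT mice were littermates, is not given in the sources used here. The number 1 or 2 is a label only, and the sources used here do not say what libraries of 1 number share, nor whether different tissues came from the same animals. P-values therefore measure the spread between these samples.

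Library totals ran from 15897446 to 44508197 counts, with a median of 28513950. Nsun6 itself was read first. Its counts cover all exons, so a deletion of exons 3 and 4 need not lower them. In CPM, counts scaled to a common library total, it stood at 9.66 and 6.08 in WT and 9.12 and 5.09 in KO small intestine, and at 8.76 and 6.58 against 5.98 and 10.3 in spleen, and the genotypes overlapped in both tissues. Neither KO library reached the lower WT library in kidney, at 6.31 and 6.55 against 4.37 and 3.70, in liver, at 4.68 and 3.18 against 2.67 and 2.92, and in heart, at 6.62 and 6.26 against 5.57 and 5.11. Over all tissues Nsun6 was at a log2 fold change of -0.29 (SE 0.17, edgeR adjusted p = 1) in KO and was not called. Each tissue carried its own markers. The summed cardiomyocyte genes were 62780 to 93790 CPM in heart, the kidney epithelial genes 26520 to 45520 CPM in kidney, and the enterocyte genes 13190 to 24490 CPM in small intestine. The hepatocyte genes summed to 200300 to 388100 CPM in liver and the lymphocyte genes to 2586 to 3543 CPM in spleen.

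Glucocorticoids are adrenal steroids that rise and fall over the day and with stress. The receptor Nr3c1 is held in the cytosol by chaperones, moves to the nucleus once bound, and switches genes on or off through response elements. Fkbp5 is a co-chaperone that lowers the receptor's affinity for hormone and so closes a feedback loop, and Tsc22d3 (GILZ) is an anti-inflammatory leucine zipper protein. Zbtb16 (PLZF) and Klf9 are transcription factors, and Sgk1 is a kinase that promotes sodium transport. Cdkn1a (p21) inhibits cyclin-dependent kinases and is also a p53 target. Mt1 and Mt2 are small cysteine-rich proteins that bind zinc and copper, and their genes are switched on by the metal sensor Mtf1 as well as by hormone. Lcn2 is a siderophore-binding protein of neutrophils and of the acute phase response.

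The promoters of Mt2, Mt1 and Sgk1 are shown because they hold the metal and hormone motifs for which this gene group is known. RefSeq promoter entries (GRCm38.p6) were used for 8 of the 10 genes, and the 250 bases before each start site were searched. Capitals mark the metal response element core (TGCACNC or TGCGCNC on either strand) in Mt2 and Mt1 and the palindromic glucocorticoid response element (AGAACA, any 3 bases, then TGTTCT) in Sgk1. All 3 are on the plus strand, at chr8:94172368-94172617 for Mt2, chr8:94178839-94179088 for Mt1 and chr10:21993640-21993889 for Sgk1.
Mt2: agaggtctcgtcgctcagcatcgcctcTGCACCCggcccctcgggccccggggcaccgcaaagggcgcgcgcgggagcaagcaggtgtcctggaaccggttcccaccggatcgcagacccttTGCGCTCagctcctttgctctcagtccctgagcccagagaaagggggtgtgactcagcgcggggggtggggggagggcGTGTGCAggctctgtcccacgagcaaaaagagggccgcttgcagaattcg
Mt1: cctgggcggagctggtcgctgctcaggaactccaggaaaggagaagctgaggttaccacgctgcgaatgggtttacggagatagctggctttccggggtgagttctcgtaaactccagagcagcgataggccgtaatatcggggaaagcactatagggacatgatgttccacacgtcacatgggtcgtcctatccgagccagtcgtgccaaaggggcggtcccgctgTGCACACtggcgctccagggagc
Sgk1: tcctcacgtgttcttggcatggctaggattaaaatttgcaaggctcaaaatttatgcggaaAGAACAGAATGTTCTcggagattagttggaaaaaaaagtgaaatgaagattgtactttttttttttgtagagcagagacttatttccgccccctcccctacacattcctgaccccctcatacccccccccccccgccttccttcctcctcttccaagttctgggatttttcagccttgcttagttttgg
Mt2 held 3 metal response cores, at 223, 128 and 50 bases before its start, and Mt1 held 1, at 23 bases before it. These counts hold only for the 250 bases before the RefSeq starts used. The Mt2 start, at 94172618, lies before the first annotated base of the gene, at 94172664. The bases after that start were not found in an annotated transcript. The core was present in 21.4% of 32851 promoter windows of the same length. The Sgk1 window is 1 of 6 for that gene and lies before an internal start site, and its response element began 189 bases before that start. The full element occurred in 3 of the 32851 windows, or 0.00913%. The shorter site AGAACA, which the full element contains on both strands, occurred in 16.1% of windows. It was found in 3 of the 6 Sgk1 windows and in 1 of 3 Tsc22d3 windows. None of these motifs was in the windows of Fkbp5, Klf9, Cdkn1a or Lcn2, which says only that the letters are not in these 250 bases.

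In GRCm38, Fkbp5 (ENSMUSG00000024222) lies at chr17:28399094-28517527 on the minus strand, Tsc22d3 (ENSMUSG00000031431) at chrX:140539528-140600659 on the minus strand and Zbtb16 (ENSMUSG00000066687) at chr9:48654297-48836222 on the minus strand. Sgk1 (ENSMUSG00000019970) lies at chr10:21882184-21999903, Klf9 (ENSMUSG00000033863) at chr19:23141226-23168134 and Cdkn1a (ENSMUSG00000023067) at chr17:29090976-29100727, all on the plus strand. Mt2 (ENSMUSG00000031762, chr8:94172664-94173568) and Mt1 (ENSMUSG00000031765, chr8:94179082-94180327) are neighbours on the plus strand. Lcn2 (ENSMUSG00000026822) lies at chr2:32384633-32388252 and Nr3c1 (ENSMUSG00000024431) at chr18:39410545-39519421, both on the minus strand. All are protein coding, and counts were summed over their exons. Mt2 shares 432 of its 588 exon bases, or 73.5%, with the antisense gene Gm45774, and Cdkn1a shares 7.68% with the antisense gene 1700023B13Rik. The stored counting command names no strand, so reads in the shared bases cannot be assigned, and the Mt2 values are uncertain and may be too low. The other 8 genes share no exon bases with another gene.

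Several libraries stood apart before any member was compared. In small intestine, 8 of 8 proximal intestine genes were called higher and 6 of 6 distal genes lower in the libraries numbered 2. The summed proximal genes (most abundant Rbp2) were 243.9 and 14410 CPM in WT libraries 1 and 2 and 528.8 and 16370 CPM in KO libraries 1 and 2. The distal genes were 9798 and 96.3 CPM in WT and 11260 and 241.4 CPM in KO, led by the bile acid binding gene Fabp6 in the libraries numbered 1. Both genotypes thus carried 1 proximal and 1 distal library, and the intestinal segment and the number cannot be told apart. In heart, the adipocyte genes (most abundant Plin4) were 194.9 and 601.9 CPM in WT and 193.2 and 515.7 CPM in KO, with 5 of 8 called higher in the libraries numbered 2. Those heart libraries also had 36090637 and 41763236 counts against 17959542 and 15897446, and their column names carry a mark, pre, that the heart libraries numbered 1 lack. Spleen WT library 2 held 3794 CPM of hepatocyte genes (most abundant Alb, 2684 CPM) against 119.5 to 305.7 CPM in the other spleens. Liver WT library 1 held 200300 CPM of hepatocyte genes against 343100 to 388100 CPM in the other livers. Small intestine KO library 1 held 442.2 CPM of cardiomyocyte genes and 24.11 CPM of lymphocyte genes, against 9.326 to 30.14 and 310.8 to 740.9 CPM in the other intestines. Spleen KO library 1 held 50.79 CPM of kidney epithelial genes against 2.454 to 3.812 CPM in the other spleens. Heart WT library 2 held 33.41 CPM of neutrophil genes against 4.571 to 6.153 CPM in the other hearts. Kidney WT library 2 was low for the nephron transporter genes Slc12a3, at 253 CPM against 4210, 1950 and 1840 CPM in WT library 1 and the KO libraries, and Slc34a1, at 582 against 4870, 3070 and 1700 CPM, and for the clock gene Nr1d1, at 2.51 against 50.1, 35.2 and 27.2 CPM. The share of any of these in the results below was not tested. In whole tissue, fewer cells of a type and less RNA per cell cannot be told apart.

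**Figure D1:**
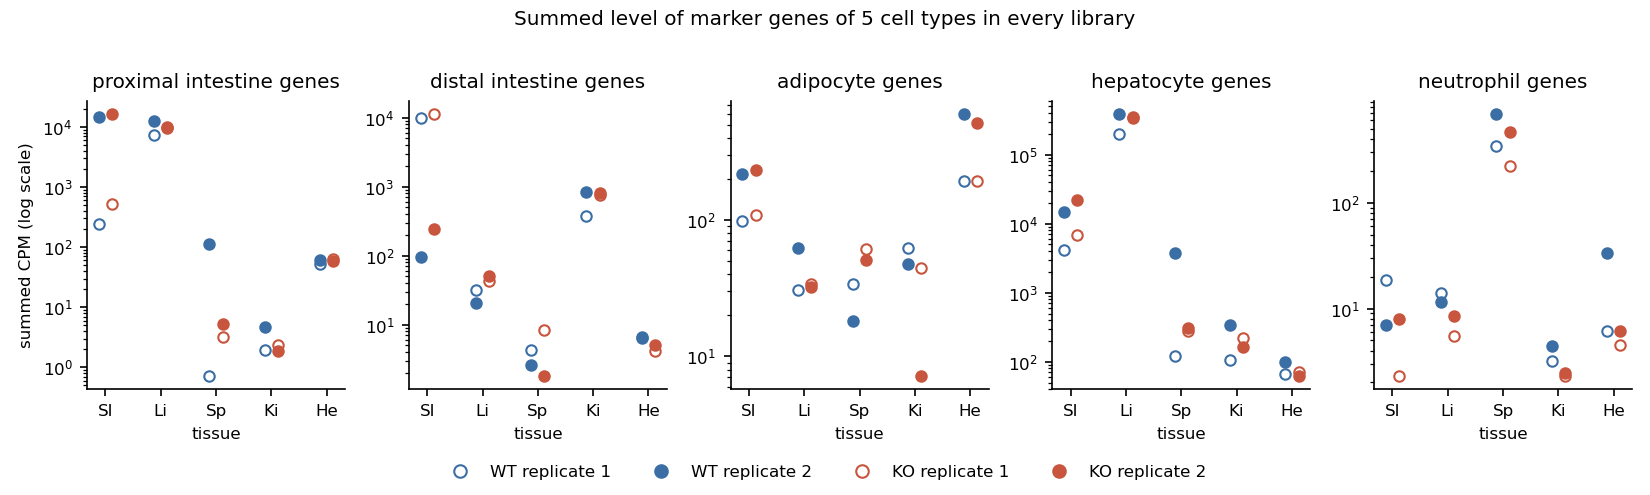
Summed CPM (log scale) of 5 marker gene lists in every library, by tissue (SI, small intestine; Li, liver; Sp, spleen; Ki, kidney; He, heart), with open points for replicate 1, filled for replicate 2, blue for WT and red for KO. The small intestine libraries numbered 2 were high for proximal genes and low for distal genes, the heart libraries numbered 2 were high for adipocyte genes, and spleen WT library 2 was high for hepatocyte genes.

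Each gene had its own order of tissues. Levels are given as mean ± SD of CPM over the 4 libraries of a tissue, and neighbours in the order were compared by edgeR over 20 libraries. Zbtb16 was highest in heart at 128.6 ± 129 CPM, above liver at 8.569 ± 3.36 CPM (n = 4 each, edgeR adjusted p = 0.000762). The heart libraries numbered 2 carried that mean, at 238.9 and 241.8 CPM. Those numbered 1 were at 13.05 and 20.76 CPM, beside 4.511 to 12.09 CPM in liver. Kidney was next at 2.55 ± 0.883 CPM (adjusted p = 0.0823 against liver), and spleen and small intestine were at 1.127 and 0.7747 CPM. Sgk1 was highest in small intestine at 407 ± 279 CPM, followed by kidney at 201.9 ± 84.7 CPM (adjusted p = 0.0597) and heart at 73.39 ± 21.1 CPM. The intestine libraries numbered 2 carried that first mean, at 525.2 and 737.7 CPM. Those numbered 1 were at 112.6 and 252.4 CPM, beside 116 to 279.5 CPM in kidney. Kidney and intestine are sodium-absorbing epithelia, where Sgk1 is known to act. Cdkn1a was highest in small intestine at 192.7 ± 23 CPM, then in heart at 43.07 ± 29.4 CPM (adjusted p = 0.000936), and between 2.364 and 4.182 CPM in the other tissues. Klf9 was at 185.5 ± 52.6 CPM in heart, 156.8 ± 58.4 CPM in liver and 156 ± 55.9 CPM in kidney, which did not pass the test against each other, and lower in small intestine at 54.68 ± 11.1 CPM (adjusted p = 0.000285) and in spleen at 21.02 ± 4.08 CPM (adjusted p = 0.000559).

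Fkbp5 was highest in liver at 106.1 ± 54.9 CPM (adjusted p = 0.0566 against heart), and heart, small intestine, kidney and spleen lay between 25.8 and 37.18 CPM with no neighbours past the test. Tsc22d3 ran from 246.9 ± 104 CPM in liver to 59.75 ± 24.5 CPM in kidney with no pair of neighbours past the test. Its order depended on the scale, since in TPM, where counts are also divided by exon length, spleen was highest at 141.9 and liver stood at 90.01. Mt1 was at 332.5 ± 111 CPM in heart and at 26.18 ± 13.4 CPM in spleen, the lowest tissue (adjusted p = 0.029 against kidney). Mt2 was under 1.5 CPM on average in every tissue, with no neighbours past the test. Lcn2 was highest in spleen at 20.68 ± 9.31 CPM and lowest in small intestine at 0.3805 ± 0.236 CPM (adjusted p = 0.000155 against heart). Nr3c1 ran from 273.6 ± 90.6 CPM in small intestine to 126.4 ± 15.7 CPM in spleen, with a step between liver and heart (adjusted p = 0.0213). That order also depended on the scale, since in TPM spleen was second at 62.59 and liver, at 48.18, stood near heart, the lowest, at 47.28. The order of some lower tissues also changed in TPM for Fkbp5, Sgk1, Klf9, Mt1 and Mt2. Pairs of tissues were called at an adjusted p below 0.1. Small intestine differed from liver in 7 of 10 genes, from spleen in 6, from kidney in 6 and from heart in 6, beside 59.7%, 62.7%, 59.4% and 65.3% of all genes. Liver differed from spleen in 6, from kidney in 5 and from heart in 6, beside 64.5%, 46.5% and 57%. Spleen differed from kidney in 5 and from heart in 5, beside 63.6% and 64.8%, and kidney from heart in 4, beside 50.5%. The members' share, 56 of 100 in all, was near that background. Compared per length within heart, in TPM, Mt1 was at 645.7, Klf9 at 100.3, Zbtb16 at 69.32, Nr3c1 at 47.28 and Mt2 at 2.152. The Mt2 value was divided by all of its exon bases, 73.5% of which are shared with an antisense gene. Mt2 levels may therefore be too low beside those of the other genes. Zbtb16 was at 5.471 and 7.916 TPM in the heart libraries numbered 1 and at 127.4 and 136.5 TPM in those numbered 2.

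**Figure D2:**
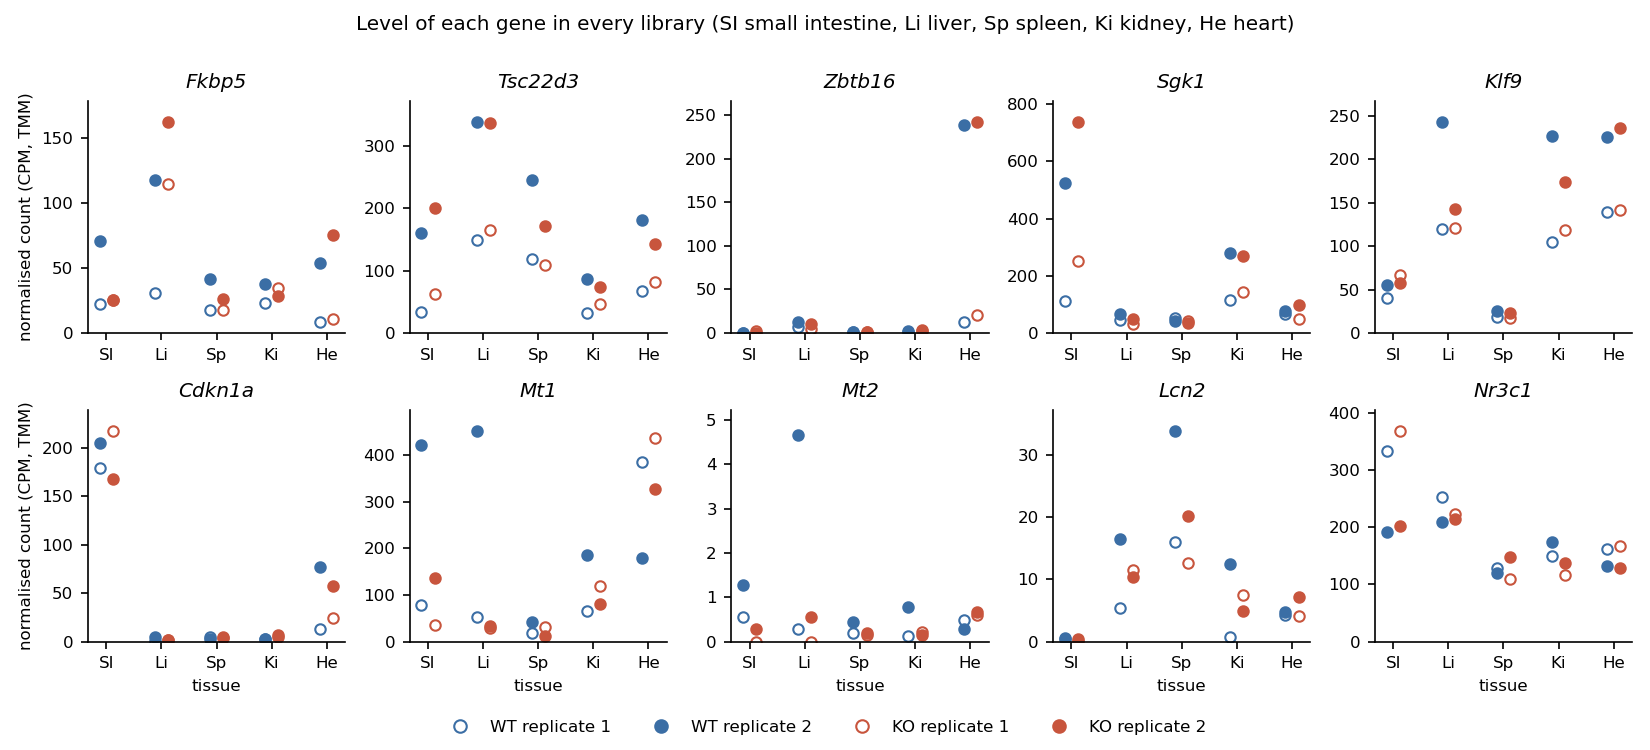
CPM of the 10 genes in each of the 20 libraries, normalized together, by tissue (SI, small intestine; Li, liver; Sp, spleen; Ki, kidney; He, heart), with open points for replicate 1, filled for replicate 2, blue for WT and red for KO. Zbtb16 separates both heart libraries numbered 2 from all other libraries, and Tsc22d3 is higher in the library numbered 2 of every tissue and genotype.

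Whether loss of Nsun6 moved these genes was asked within each tissue. A call needed an adjusted p below 0.1 together with a change of more than 2-fold. None of the members was called in any tissue, out of 10 tested in small intestine, liver and heart and 9 in spleen and kidney, where Mt2 failed the filter on low counts. None had an unadjusted edgeR p under 0.05, and neither DESeq2 nor a fit with a replicate block called any. Libraries of 1 number in small intestine shared a segment. Compared within a number there, Mt1 was at 76.6 CPM in WT against 34.3 in KO, and at 415 against 133. Mt2 was also lower in KO both times, and Tsc22d3, Sgk1, Klf9 and Nr3c1 were higher both times. The other members went both ways. Some steps were small, as for Klf9 (54.3 CPM in WT against 55.5 in KO) and Nr3c1 (188 against 196 CPM) in the libraries numbered 2. The share of all genes with the same direction both times was not counted, so these directions do not show a KO effect. The background share of genes called was 0% in small intestine, 0.0509% in liver, 0.223% in spleen, 0% in kidney and 0% in heart, so few genes of any kind were called. Over all tissues together 0 of 10 passed an adjusted p under 0.1, beside 0.00432% of 23159 genes, and 0 of 10 passed for a difference of the KO effect between tissues, beside 0%.

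Mt1 in liver had the largest log2 fold change of the members whose genotypes did not overlap. It stood at 33.7 and 298 CPM in the WT libraries and at 19.95 and 20.8 CPM in the KO libraries. Both KO livers lay below both WT livers, but the WT libraries differed far more from each other than the lower one did from KO. The log2 fold change was -3.02 (SE 1.11, edgeR adjusted p = 0.999), and it ranged from -3.88 to -0.72 as single libraries were left out. Without WT library 1, the one with fewer hepatocyte transcripts, Mt1 was called (-3.88, SE 0.18, adjusted p = 1.05e-05), and without WT library 2 Fkbp5 was called (2.19, SE 0.24, adjusted p = 0.00464). Liver Fkbp5 was at 19.7 and 77.4 CPM in WT and 76.0 and 104 CPM in KO, so WT library 1 alone was low.

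The other members whose genotypes did not overlap are few. Cdkn1a in kidney was at 2.77 and 3.53 CPM in WT and 5.24 and 7.25 CPM in KO, a log2 fold change of 0.99 (SE 0.47, adjusted p = 1). Nr3c1 in kidney was lower in both KO libraries by a log2 fold change of -0.38 (SE 0.30), and Sgk1 in spleen by -0.28 (SE 0.16). Sgk1 ranged from -0.38 without spleen WT library 2 to -0.17 without WT library 1. The summed erythroid genes were 6096 and 8303 CPM in WT against 14100 and 12930 CPM in KO spleen. Their part in the spleen values was not tested. Klf9 in small intestine was higher in KO by 0.34 (SE 0.30). It ranged from 0.12 without WT library 1 to 0.58 without WT library 2. Mt2 had 19 and 32 counts in WT against 0 and 7 in KO small intestine, and was at 0.469 and 0.259 CPM against 0.557 and 0.617 CPM in heart. Without overlap, 1 member was higher and 1 lower in small intestine, 1 lower in liver, 1 lower in spleen, 1 higher and 1 lower in kidney and 1 higher in heart. The background of genes without overlap, higher and lower, was 13.6% and 11.6% in small intestine, 17.2% and 16.1% in liver, 17% and 14.4% in spleen, 10.3% and 11.2% in kidney and 7.56% and 9.66% in heart. Lcn2 in kidney overlapped, at 0.802 and 14.1 CPM in WT and 8.47 and 5.50 CPM in KO, and was called lower in KO without WT library 1 (-1.01, adjusted p = 0.0515) and higher without WT library 2 (3.13, adjusted p = 0.0143). Its direction thus rested on which WT kidney was kept.

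**Figure D3:**
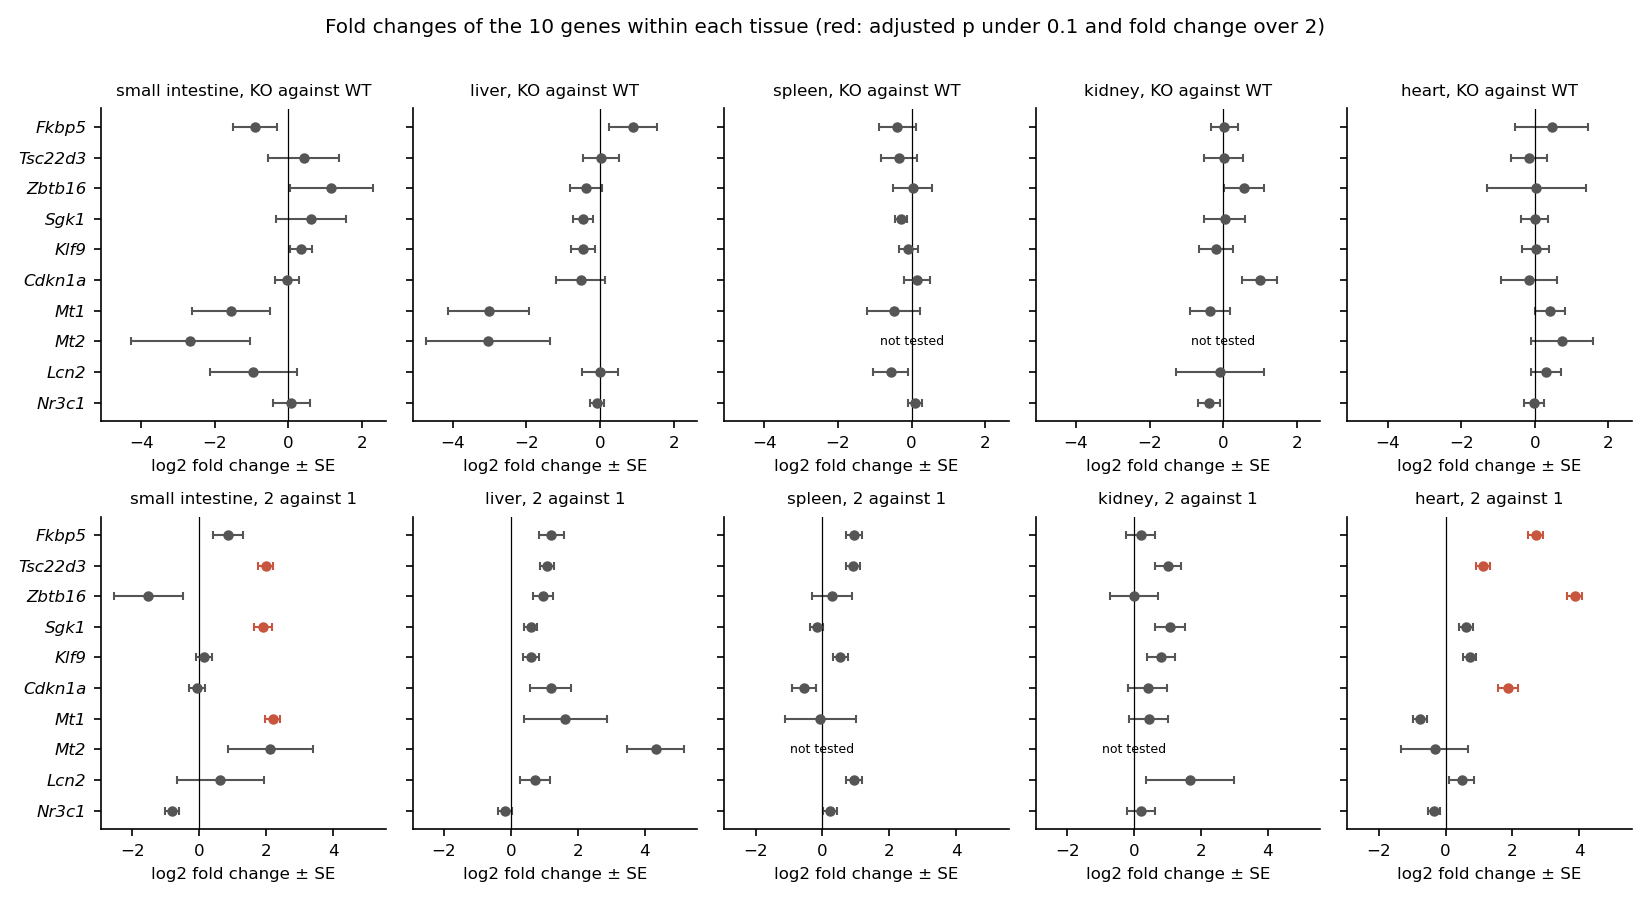
Log2 fold change ± SE of each gene in the 5 tissues, KO against WT in the upper panels and libraries numbered 2 against 1 in the lower panels, from fits to the 4 libraries of a tissue, with calls in red. No gene is called in the upper panels, and the calls below are 4 in heart and 3 in small intestine.

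The heart libraries numbered 2 stood above those numbered 1 for the receptor targets, in WT and KO alike. Zbtb16 was at 12.3 and 19.3 CPM in WT and KO libraries 1 and at 225 and 225 CPM in libraries 2. Fkbp5 was at 8.14 and 10.3 CPM in libraries 1 and 50.5 and 70.0 CPM in libraries 2. Cdkn1a was at 12.4 and 23.1 CPM in libraries 1 and 72.8 and 52.97 CPM in libraries 2. For all 3 the lower of the libraries numbered 2 was more than 2 times the higher of those numbered 1. Zbtb16 rose 14.6-fold (log2 3.86, SE 0.22, edgeR adjusted p = 8.34e-12), Fkbp5 6.49-fold (2.70, SE 0.23, adjusted p = 9.11e-09) and Cdkn1a 3.64-fold (1.86, SE 0.31, adjusted p = 0.00526). Tsc22d3, at 63.1 and 75.9 against 171 and 133 CPM, rose 2.17-fold (1.12, SE 0.20, adjusted p = 0.000577). With a library left out, Cdkn1a ranged from 1.18 without WT library 1 to 2.55 without KO library 1. These 4 of 10 calls stood beside 4.88% of all genes in this comparison, and the test had 1 residual degree of freedom per gene, with the spread shared across genes.

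Klf9, at 131 and 131 CPM in libraries 1 and 213 and 219 CPM in libraries 2, was 0.72 higher on the log2 scale (SE 0.19, adjusted p = 0.013), past the p threshold but under a 2-fold change. Sgk1, at 64.0 and 44.9 against 73.8 and 92.0 CPM, was 0.62 higher (SE 0.21, adjusted p = 0.0667), with most of the gap in KO, and ranged from 0.206 without a KO library to 1.035 without WT library 2. By DESeq2 its adjusted p was 0.187. Mt1 went the other way at -0.75 (SE 0.21, adjusted p = 0.0208), with 363 and 405 CPM in libraries 1 against 170.1 and 304 CPM in libraries 2, and ranged from -1.09 without KO library 1 to -0.41 without WT library 2. Nr3c1 was at -0.34 (SE 0.18, adjusted p = 0.286) and Lcn2 at 0.48 (SE 0.37, adjusted p = 0.5). Lcn2 ranged from 0.12 without KO library 2 to 0.84 without WT library 2. Without overlap, 7 genes were higher and 2 lower, beside 29.9% and 26.9% of all genes. When one fit was made to all 20 libraries, the 4 calls were lost (each adjusted p = 0.359), as were all other calls in heart. Depth and the adipocyte genes moved with the same heart libraries, and their part in these differences was not tested.

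In small intestine the calls were on Tsc22d3, as in heart, and on Mt1 and Sgk1, which were not called in heart. Mt1 was at 76.6 and 34.3 CPM in WT and KO libraries 1 and 415 and 133 CPM in libraries 2. Tsc22d3 was at 33.2 and 58.6 against 158 and 195 CPM, and Sgk1 at 111 and 238 against 516 and 716 CPM. Each of the 3 was higher in both libraries numbered 2 than in either numbered 1. Mt1 rose 4.58-fold (log2 2.20, SE 0.23, adjusted p = 0.0289), Tsc22d3 3.97-fold (1.99, SE 0.22, adjusted p = 0.0332) and Sgk1 3.75-fold (1.91, SE 0.27, adjusted p = 0.05). These 3 of 10 stood beside 7.64% of all genes. Fkbp5 did not follow, since only WT library 2 was high, at 69.5 CPM beside 22.1, 24.01 and 24.8 CPM in the others (0.85, SE 0.45, adjusted p = 0.368). Zbtb16 was under 2 CPM in every library. Nr3c1, at 328 and 347 against 188 and 196 CPM, was lower in both libraries numbered 2 (-0.82, SE 0.20, adjusted p = 0.125), and with library totals as the only scaling it was called (-1.04, adjusted p = 0.0594). Without overlap, 4 genes were higher and 2 lower, beside 26.8% and 27.9% of all genes. Proximal and distal genes separated the same libraries, and Mt1 lost its call in one fit of all 20 libraries (adjusted p = 0.208). Of the adipocyte genes, Cfd (-6.61), Adipoq (-8.01), Plin1 (-5.55) and Retn (-6.57) were called lower in the libraries numbered 2. Cidec was called higher (3.04), and the part of these genes was not tested.

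In liver, spleen and kidney no member was called, beside 0.0699%, 0.00531% and 0% of all genes. Liver had the most without overlap, 7 higher and 1 lower in the libraries numbered 2, beside 17% and 17.9% of all genes. Tsc22d3 was at 96.8 and 109 CPM in libraries 1 and 222 and 215 CPM in libraries 2 (1.09, SE 0.21, edgeR adjusted p = 0.23). Mt2 had 7 and 0 counts against 88 and 15 (adjusted p = 0.237). DESeq2 called Tsc22d3 (adjusted p = 0.00478), Mt2 (adjusted p = 0.0475) and Fkbp5 (adjusted p = 0.0898), and edgeR with library totals alone called Mt2, Mt1 and Fkbp5. The share of all genes called under these settings is not given here. Fkbp5 was at 19.7 and 76.0 CPM in libraries 1 and 77.4 and 104 CPM in libraries 2. Zbtb16, at 4.70 and 2.99 against 7.96 and 6.67 CPM, differed by 0.95 (SE 0.30). Sgk1, at 28.4 and 21.2 against 44.2 and 31.4 CPM, differed by 0.60 (SE 0.19), and Klf9, at 77.5 and 80.6 against 160 and 91.5 CPM, by 0.61 (SE 0.24). All 3 were higher in both libraries numbered 2. With a library left out, Klf9 ranged from 0.18 without WT library 1 to 1.04 without KO library 1, and Fkbp5 from 0.45 to 1.98 without the same libraries. Mt1 was at 33.7 and 298 CPM in WT but 19.95 and 20.8 CPM in KO, so its gap lay in WT alone.

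In spleen, 4 of 9 members were higher in both libraries numbered 2 and 1 was lower, beside 15.5% and 14.5% of all genes. Lcn2 was at 23.2 and 18.8 CPM in libraries 1 and 51.1 and 31.2 CPM in libraries 2, a log2 difference of 0.94 (SE 0.24, edgeR adjusted p = 1). The neutrophil genes moved with it, at 347.4 and 690.1 CPM in WT and 221.9 and 466.9 CPM in KO, with 14 of 14 higher on average, 0 called and S100a9 the most abundant. Their part in the Lcn2 values was not tested. Fkbp5 was at 25.9 and 26.7 against 62.1 and 40.6 CPM (0.94, SE 0.24), Tsc22d3 at 171 and 162 against 371 and 266 CPM (0.92, SE 0.20) and Klf9 at 26.5 and 25.1 against 38.6 and 36.1 CPM (0.53, SE 0.22). Cdkn1a was the lower one, at 7.41 and 7.37 against 4.38 and 5.78 CPM. In kidney, Tsc22d3 was at 37.8 and 52.0 against 96.3 and 82.8 CPM (1.01, SE 0.39, adjusted p = 0.904), Sgk1 at 135 and 159 against 314 and 301 CPM (1.07, SE 0.45) and Klf9 at 122 and 132 against 255 and 194 CPM (0.81, SE 0.43). Without kidney WT library 2 these values were 0.67 for Tsc22d3, 0.92 for Sgk1 and 0.55 for Klf9. These 3 of 9 without overlap, all higher, stood beside 22.6% higher and 24.3% lower among all genes. Mt1 was at 76.6 and 209.6 CPM in WT and 133 and 89.3 CPM in KO kidney, and at 27.7 and 63.8 CPM in WT and 46.7 and 18.4 CPM in KO spleen, so its direction differed between genotypes in both tissues. Fkbp5 in kidney did the same, at 26.9 and 42.5 CPM in WT and 38.6 and 32.0 CPM in KO.

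Read over all tissues, Tsc22d3 was higher in the library numbered 2 in 10 of 10 tissue and genotype pairs. It rose 2.32-fold (log2 1.21, SE 0.16, edgeR adjusted p = 0.0152) and was the 1 member of 10 called, beside 0.0302% of all genes. All 10 pairs went one way, upward, in 0.225% of genes. Fkbp5 and Klf9 were higher in 9 of 10 pairs, Sgk1 and Mt2 in 8, Cdkn1a and Lcn2 in 7, Zbtb16 and Mt1 in 6 and Nr3c1 in 3, and 8 or more pairs upward were seen in 5.64% of genes (8 or more downward, which no member had, in 6.39%). Fkbp5 was at 1.15 (SE 0.30, adjusted p = 0.603), Klf9 at 0.56 (SE 0.13, adjusted p = 0.474), Sgk1 at 0.79 (SE 0.23, adjusted p = 0.707) and Mt2 at 1.46 (SE 0.63, adjusted p = 0.862). Nr3c1 was at -0.19 (SE 0.15), and outside small intestine and heart its libraries lay within 137 to 164 CPM in liver, 164 to 228 CPM in spleen and 129 to 195 CPM in kidney. Tsc22d3 kept its call with each tissue left out in turn (1.03 to 1.34). Without both small intestine and heart it was at 0.98 and was not called (adjusted p = 0.878).

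Within WT, Tsc22d3 was at 1.46 (SE 0.21, adjusted p = 0.053), beside 0.0389% of genes called, and within KO at 0.97 (SE 0.21, adjusted p = 1), beside 0.013%. The difference, KO minus WT, was -0.49 (SE 0.30, adjusted p = 1), so the genotypes were not shown to differ, and the WT call was lost when any single tissue was left out. Mt1 was at 1.49 (SE 0.60) in WT and -0.11 (SE 0.56) in KO. Its difference, KO minus WT, was -1.60 (SE 0.82) and was not called. Whether the gap between libraries numbered 2 and 1 varied among tissues was tested as an interaction, which called Zbtb16 (adjusted p = 0.0844), the only member, beside 1.71% of all genes. That call was lost with library totals as the only scaling (adjusted p = 0.125) and in 10 of the 20 fits that left out 1 library (adjusted p up to 0.425, without heart WT library 2). Those 10 were the fits without any 1 of the heart libraries, the liver libraries or the KO small intestine libraries.

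**Figure D4:**
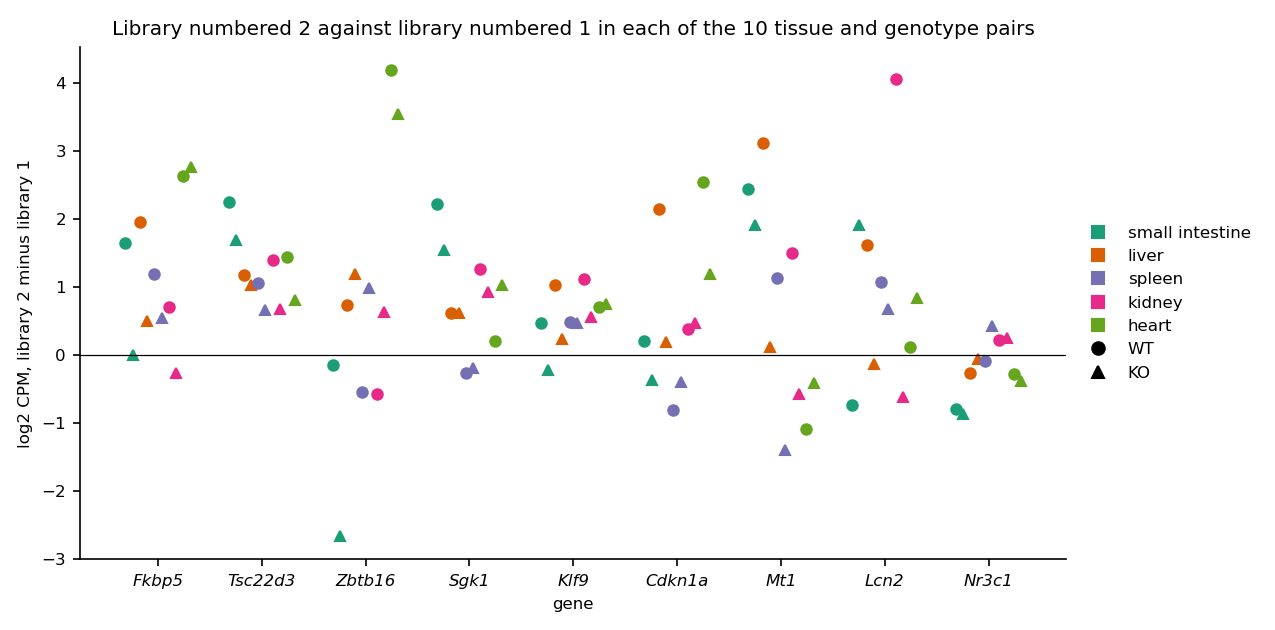
Log2 CPM of the library numbered 2 minus that of the library numbered 1 for 9 of the genes (Mt2 left out for its low counts), with 1 point for each of 10 tissue and genotype pairs, colour for tissue, circles for WT and triangles for KO. Tsc22d3 is above 0 in all 10 pairs, Zbtb16 reaches the top in heart, and Nr3c1 is below 0 in 7.

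Other known receptor targets were read in the same fits, from a list of 30 genes. Between KO and WT 0 were called in each tissue. Between libraries numbered 2 and 1, heart had 8 of 29 called higher and 0 called lower, beside 4.88% of all genes called, with a median log2 fold change of 0.60 beside 0.05 over all genes. Pck1, which makes phosphoenolpyruvate for glucose and glycerol synthesis, was at 0.527 and 0.418 CPM in libraries 1 and 34.4 and 5.70 CPM in libraries 2 (5.20, SE 0.47, edgeR adjusted p = 2.67e-06). Ddit4, an inhibitor of mTOR signalling, was at 19.5 and 28.2 against 54.3 and 70.9 CPM (1.40, SE 0.21, adjusted p = 7.92e-05). Zfp36, which speeds the decay of cytokine mRNAs, was at 18.3 and 15.6 against 44.0 and 34.0 CPM (adjusted p = 0.000829). Each was higher in both libraries numbered 2. The other 5 called were Klf15, Hif3a, Slc10a6, Cebpd and Per1. The adipocyte gene Cidec was at 0.234 and 0.418 CPM in libraries 1 and 18.6 and 9.42 CPM in libraries 2, and whether Pck1, also an adipocyte gene, came with it was not tested.

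In small intestine 5 of 29 were called higher and 2 called lower, beside 7.64% of all genes called (median 0.19 beside -0.03). Pdk4, a kinase that shuts off pyruvate dehydrogenase, was at 3.89 and 4.82 CPM in libraries 1 and 87.9 and 130 CPM in libraries 2 (4.63, SE 0.22, adjusted p = 0.01). Errfi1, an inhibitor of the EGF receptor, was at 55.9 and 51.4 against 178 and 140 CPM (1.56, SE 0.19, adjusted p = 0.038). The clock gene Per1 was at 8.54 and 13.9 against 54.5 and 44.5 CPM (2.17, SE 0.33, adjusted p = 0.0575). The tyrosine-degrading enzyme Tat went the other way, at 57.9 and 34.5 CPM against 0 and 0.12 CPM, as did the muscle ubiquitin ligase gene Fbxo32 at -2.35 (SE 0.41, adjusted p = 0.0702). In liver 2 of 27 were called, both higher, beside 0.0699% of all genes, and they were Lpin1, a phosphatidate phosphatase, at 50.9 and 60 against 296 and 196 CPM (adjusted p = 0.0328), and Per1 at 13.8 and 17.7 against 65.9 and 43 CPM (adjusted p = 0.0824). Spleen and kidney had 0 of 29 called each, beside 0.00531% and 0%, with medians of 0.10 and 0.04 beside 0.02 and 0.03. Per1 did not keep to one direction in kidney, at 36.1 and 13.4 CPM in WT and 34.3 and 49.4 CPM in KO.

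**Figure D5:**
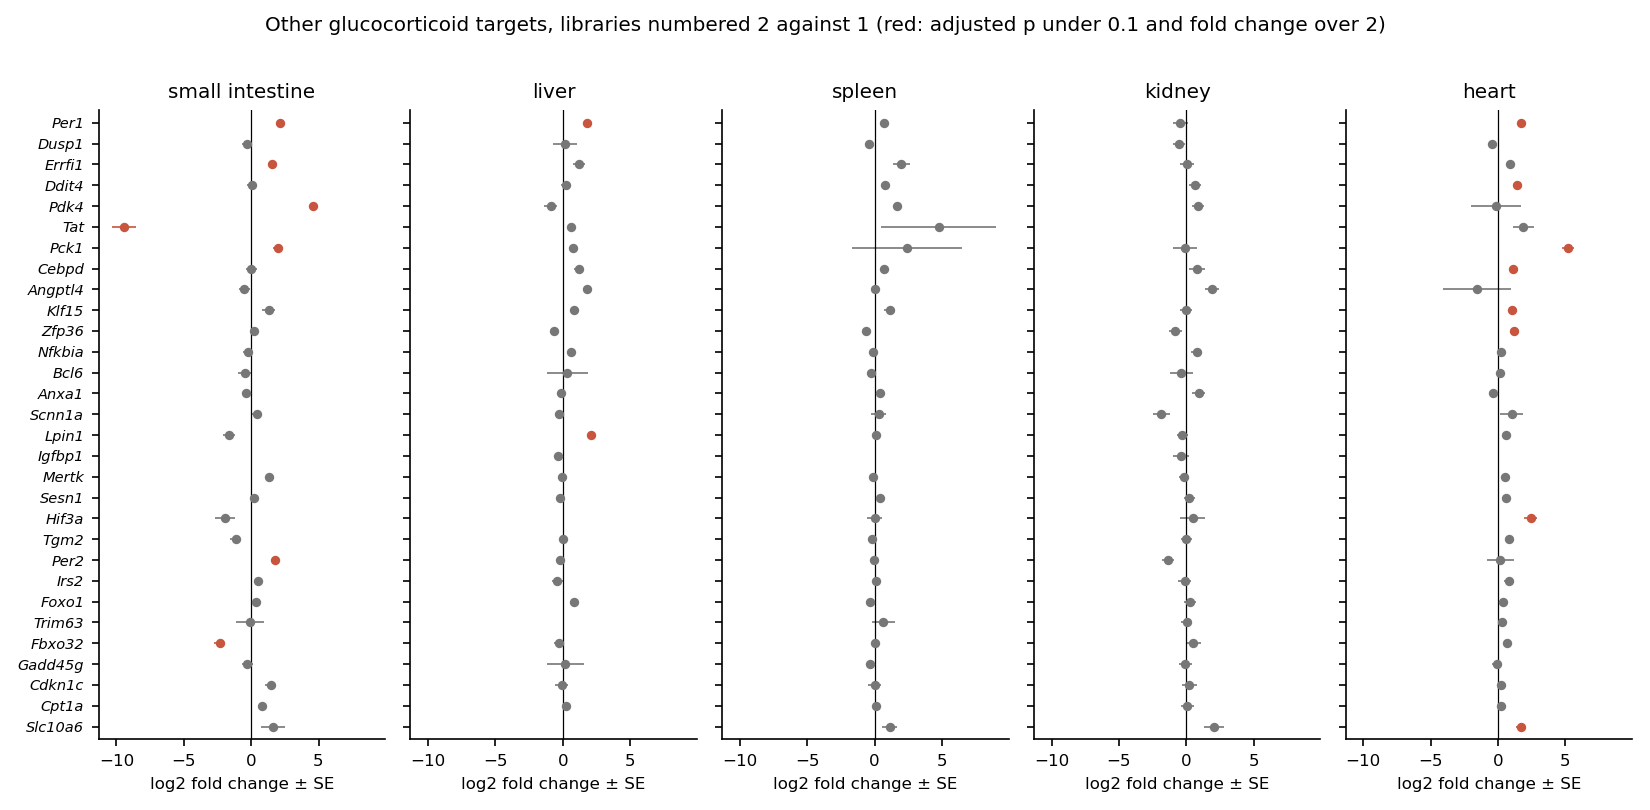
Log2 fold change of libraries numbered 2 against 1 for the 30 other receptor targets in each tissue where they were tested, with calls marked. Calls are 8 in heart, all higher, 7 in small intestine, 2 of them lower, and 2 in liver, and there are 0 in spleen and kidney, while the size of the Tat value in small intestine depends on a count of 0.

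The genes that carry, make or clear the hormone were read in the same fits. Of 15 genes for receptor chaperones, cofactors and steroid metabolism, 0 were called between genotypes in any tissue, and between the numbers 2 of 14 were called, both lower, in small intestine, beside 7.64% of all genes, and 0 in the other tissues. Hsd11b2, which inactivates glucocorticoid, was at 6.69 and 2.60 CPM against 0.78 and 0.20 CPM (-3.35, SE 0.56, edgeR adjusted p = 0.0659), and the efflux pump gene Abcb1a at 571 and 979 against 193 and 121 CPM (-2.29, SE 0.44, adjusted p = 0.0866). Adrenal cortex genes summed to 5.28 to 10.4 CPM outside spleen and 62.87 to 95.96 CPM in spleen, with Star the most abundant except in liver KO library 1, where it was Hsd3b1. Among 10 metal response genes, 3 of the 9 tested in small intestine were called, beside 7.64% of all genes, and 0 elsewhere, beside 4.88% in heart and under 0.1% in liver, spleen and kidney. The manganese exporter gene Slc30a10 was at 92.1 and 90.9 against 1240 and 1010 CPM (3.61, SE 0.26, adjusted p = 0.0173), and the metal importer gene Slc39a14 at 90.5 and 105 against 584 and 478 CPM (2.44, SE 0.25, adjusted p = 0.0289). The zinc exporter gene Slc30a1, itself a target of Mtf1, was lower where Mt1 was higher, at 209 and 85.5 against 81.1 and 45.3 CPM (-1.14, SE 0.21, adjusted p = 0.0775).

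Lists that share a member's other inputs were read beside them, against the same shares of all genes called between the numbers, 7.64% in small intestine, 4.88% in heart, 0.0699% in liver, 0.00531% in spleen and 0% in kidney. Of 20 other p53 targets, read because Cdkn1a is also one, 0 were called in any tissue in either comparison, with medians from -0.18 to 0.07 between the numbers. Of 20 acute phase genes, 3 of 13 tested in heart were called higher (Hp, Orm1 and Itih4) and 2 of 15 in small intestine called lower (Saa1 and Socs3), with 0 called elsewhere. Of 10 hepatocyte genes, 6 were tested in heart and 2 were called higher in the same libraries, Alb at 3.46 and 0.835 against 6.06 and 4.03 CPM (1.43, SE 0.45, adjusted p = 0.0446) and Ahsg at 3.57 and 5.01 against 12.2 and 6.03 CPM (1.02, SE 0.37, adjusted p = 0.0948), and their part in the acute phase values was not tested. Hp was at 1.58 and 0.905 against 15.7 and 6.98 CPM in heart, and Saa1 at 906 and 49.8 against 0.195 and 0.0801 CPM in small intestine. Of 17 clock genes, 4 were called higher in small intestine (Bhlhe40, Hlf, Per1 and Per2), 1 in liver and 1 in heart (Per1 in both), and 0 were called in spleen and kidney. The kidney median was -0.96 beside 0.03 over all genes. Of 10 immediate early genes, 3 were called in heart, all higher (Fosb, Jun and Fos), and 0 were called elsewhere. Jun was at 19.3 and 29.9 CPM in WT and KO heart libraries 1 and 65.9 and 42.2 CPM in libraries 2. Fos, at 8.2 and 4.94 against 25.6 and 6.08 CPM, overlapped between the numbers. Fosb did too, at 2.23 and 0.418 against 8.49 and 2.18 CPM.

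Members were also compared with one another over the 10 tissue and genotype pairs, by Pearson's r of the log2 difference between libraries 2 and 1, as a description. The pairs share tissues, and single pairs weigh heavily, such as kidney WT for Lcn2, liver WT for Mt1 and both heart pairs for Zbtb16. Fkbp5, Zbtb16 and Cdkn1a went together (r = 0.70 for Fkbp5 with Zbtb16, 0.68 with Cdkn1a and 0.70 for Zbtb16 with Cdkn1a). Tsc22d3 went with Sgk1 (0.69) and Mt1 (0.63) and against Nr3c1 (-0.75). Tsc22d3 and Fkbp5, both direct receptor targets, gave 0.16. Among 13285 genes tested in all tissues, those nearest to Fkbp5 were Wipi2 (0.924), Naglu (0.905), Man2b2 (0.889), Amdhd2 (0.873) and Ppip5k2 (0.853). Nearest to Mt1 were Cebpb (0.954), Fibp (0.951), Pla2g12a (0.941), Ttc12 (0.94) and Babam1 (0.934). Nearest to Lcn2 were Fer (0.938), Nim1k (0.928), Riox1 (0.915), Ltv1 (0.908) and Lgmn (0.901).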

How the data were processed

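The authors trimmed reads from stranded mRNA libraries with cutadapt, mapped them with HISAT2 2.1.0 (mm10) and deposited raw counts per gene from featureCounts 2.0.1 with GRCm38.102, beside each gene's exon length. Their methods name stranded, paired counting, whereas the stored command names neither. No column was left out (0). Members, gene lists and tests were chosen with earlier results of these data known. Counts were tested in R 4.3.3 with edgeR 4.0.16 (TMM, filterByExpr, robust quasi-likelihood, Benjamini-Hochberg over all genes tested), checked first on simulated data. Calls needed an adjusted p below 0.1 and, within a tissue, also a change of more than 2-fold. The replicate number was tested with genotype as covariate. SE is the absolute log2 value over the root of F. CPM used TMM scaling within a tissue, or over 20 libraries for levels and list sums. Named genes were the members, fold changes going to those without overlap or past the threshold, then up to 3 called genes per list and direction and the 5 genes most like Fkbp5, Mt1 and Lcn2. Genes named beyond these were chosen after their values were seen. Alternatives were DESeq2 1.42.0, library totals, no filter, at least 10 counts, an adjusted p under 0.05, no fold threshold, one fit of all libraries, the replicate block, TPM and leaving out libraries or tissues. Depth sets counting error only. One result on an erythroid marker is not reported here.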

Additional observations from a re-analysis of the deposited data

Results flagged for a closer look

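The gap between libraries numbered 2 and 1 differed between tissues, by the interaction test in edgeR, for 7 of the genes read here. Among the members this held for Zbtb16 (adjusted p = 0.0844), which was high in both heart libraries numbered 2. Its call was lost with library totals (adjusted p = 0.125) and in 10 of 20 fits without 1 library (adjusted p from 0.0326 to 0.425 over the 20). Among the other receptor targets it held for Lpin1 (adjusted p = 0.0206), Fbxo32 (adjusted p = 0.0524) and Zfp36 (adjusted p = 0.0787). Against both libraries numbered 1, both libraries numbered 2 were higher for Lpin1 in liver and heart and lower in small intestine and kidney. Fbxo32 was likewise lower in small intestine and liver and higher in heart and kidney. Zfp36 was higher in heart and lower in liver, spleen and kidney. Its libraries numbered 1 and 2 were at 132 and 92.9 against 68.6 and 70.6 CPM in liver. They were at 288 and 237 against 168 and 161 CPM in spleen, and at 32.9 and 27 against 14.6 and 19.9 CPM in kidney. The metal importer gene Slc39a14 (adjusted p = 0.0442), the clock gene Hlf (adjusted p = 0.063) and the acute phase gene Saa1 (adjusted p = 0.0886) differed through small intestine, where the intestinal segment moved with the number.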

How the results depend on the processing

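With 2 libraries a group and 1 or 2 residual degrees of freedom within a tissue, these data limit what a missed call can show. Lcn2 in kidney turned between KO and WT with the WT library left out (-1.01 and 3.13), and in TPM spleen stood above liver for Nr3c1 and Tsc22d3. Between KO and WT within a tissue, calls stayed at 0 in small intestine, spleen and heart and ranged from 0 to 1 in liver and kidney as single libraries were left out. For the gap between the numbers within a tissue, liver went from 0 to 3 called with DESeq2, with library totals and with no filter, and heart from 4 to 0 in one fit of all libraries and to 7 with no fold threshold. With a library left out that comparison has no residual degrees of freedom, so only values were had. The difference of the KO effect between tissues went from 0 to 1 (Mt1, adjusted p = 6.17e-05) with no filter. Over all tissues the number called 1 member, 4 with DESeq2, 1 with any library left out and 0 without small intestine and heart together, an alternative chosen after seeing the data. Within WT it called 1, 3 with DESeq2, 0 with library totals, with at least 10 counts, without any 1 tissue and without small intestine and heart, and 0 to 1 with a library left out. Within KO it called 0, and 1 with DESeq2. The interaction with tissue called 1, 5 with DESeq2, 0 with library totals, 2 with no filter and 0 to 2 with a library left out, the Zbtb16 call being lost with library totals (adjusted p = 0.125). The counts of members above were not set beside the share of all genes called under the same setting. They show how calls moved with the setting and nothing particular to the members. The causes were not tested. The labels give libraries of 1 number nothing else in common. The differences of libraries 2 and 1 in WT and KO correlated across genes at r = 0.649 in small intestine, 0.074 in liver, -0.024 in spleen, 0.252 in kidney and 0.469 in heart. Fitted with a replicate block, 0 members were called between KO and WT in each tissue and over all tissues, and 20 genes in place of 8 were called in liver and 6 in place of 0 in heart.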

Other observations

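Spleen held calls on erythroid marker genes between the genotypes. By edgeR, Slc4a1 (log2 1.57, SE 0.16, adjusted p = 0.0656), which encodes the anion exchanger of red cells, Epb42 (1.67, SE 0.18, adjusted p = 0.0656), which encodes a protein of the red cell membrane skeleton, and Alas2 (1.34, SE 0.18, adjusted p = 0.0839), the first enzyme of heme synthesis in red cells, were higher in KO spleen. The summed erythroid genes were 6096 and 8303 CPM in WT and 14100 and 12930 CPM in KO spleen, with Hba-a1 the most abundant. The pancreatic acinar genes summed to 0 to 4.589 CPM over all libraries.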
